A study of Mus musculus with 8 samples.

Results

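The 36 genes described here encode the steps that take glucose into the cell, break it down to pyruvate, turn pyruvate into lactate or pass it to the mitochondrion, and divert glucose 6-phosphate into the pentose phosphate pathway. They are the rows of the deposited count table that carry 1 of 36 listed gene symbols. The rule uses names and no measured values, but the list was drawn up with earlier results of these data known. The table held 55421 genes, and 37 of its rows carried these names. Aldoa had 2 rows, and the row with more counts was used, because the other held between 1 and 10 counts in each library. All 36 genes were among the 20588 genes that could be tested.

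Poly(A) RNA was sequenced from SSC cultures, which are primary cultures of mouse spermatogonia, to give 8 libraries. All cultures had the C57BL/6XDBA/2 strain background, and per the study's methods they were derived from testes of 6-day-old pups and grown on irradiated mouse embryonic fibroblasts (MEFs) from outbred CF1 mice, and no source used here says that these feeder cells were removed before RNA extraction. Either genotype, Stra8KO or Spo11KO, was given vehicle (Veh) or NRRA for 2 days, with 2 libraries in each of the 4 groups. Stra8 is a retinoic acid (RA) responsive gene needed for meiotic entry, and Spo11 is needed for the programmed breaks of meiotic recombination, so neither genotype is wild type. The NRRA condition pairs RA with a nutrient-restricted medium in which most of the SSC medium is replaced by Earle's Balanced Salt Solution (EBSS). The SSC medium supplies glucose, pyruvate, lactate, glutamine, FGF2 and GDNF, and its dilution therefore lowers several of these at once, while EBSS itself contains glucose. Nutrient restriction and RA were not separated in the groups used here. The replicates are described as biologically independent, but no source used here says whether they came from separately derived lines, so p-values measure only the spread between these libraries, which may be technical.

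Glycolysis splits glucose into pyruvate in the cytosol, with small net yields of ATP and NADH. Lactate dehydrogenase then regenerates NAD+ by turning pyruvate into lactate, or the pyruvate dehydrogenase complex feeds it as acetyl-CoA into the mitochondrial citric acid cycle. The pentose phosphate pathway makes NADPH and ribose from glucose 6-phosphate. In the testis, undifferentiated spermatogonia are known for a comparatively glycolytic metabolism, whereas spermatocytes rely largely on lactate that Sertoli cells supply.

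Library totals ran from 20960794 to 27038868 counts, and levels are given as CPM, the counts of a gene divided by the TMM-scaled library total and expressed on the usual CPM scale. In Stra8KO, Stra8 had 2 and 0 counts under Veh and 169 and 170 counts under NRRA, against 28 and 12 counts and 12604 and 16191 counts in the libraries labelled Spo11KO, so Stra8KO libraries were far below the others within each medium, with some Stra8 counts after NRRA. For Spo11 the Stra8KO libraries held 32 and 31 counts under Veh and 68 and 66 counts under NRRA, and those labelled Spo11KO held 72 and 75 counts and 148 and 127 counts. Spo11 was thus not lower in the libraries labelled Spo11KO, and gene counts did not check that label. The 16 fibroblast markers summed to 30725 to 31289 CPM in Stra8KO Veh, 48045 to 48603 CPM in Stra8KO NRRA, 16077 to 16218 CPM in Spo11KO Veh and 24427 to 25010.3 CPM in Spo11KO NRRA. The 8 pan-germ markers summed to 712 CPM in both Stra8KO Veh libraries, and to 829.6 to 874 CPM, 1456 to 1512 CPM and 1679.6 to 1749 CPM in the other groups in the same order. Each library therefore held RNA of germ cells and of fibroblast-type cells. The markers do not show whether the latter were the MEF feeders. In such bulk libraries, fewer cells of a type and less RNA per cell cannot be told apart. Sertoli, Leydig, macrophage and endothelial markers each summed to at most 62.2 CPM in any library, and Insl3 of the Leydig list was at no more than 3 counts in every library.

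To see how NRRA moved this pathway, the 36 genes were first summed. In Stra8KO they took 0.700% and 0.697% of all counts in the Veh libraries and 0.527% and 0.530% in the NRRA libraries. In the libraries labelled Spo11KO they took 0.812% and 0.796% under Veh and 0.488% and 0.480% under NRRA. The NRRA libraries lay below the Veh libraries in both genotypes with no overlap, at 0.757 ± 0.0028 (SD of the ratios of single libraries, n = 2 per group) times the Veh share in Stra8KO and 0.603 ± 0.0090 times in the cultures labelled Spo11KO. The libraries labelled Spo11KO had the higher share under Veh and the lower share under NRRA.

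By role, the NRRA share was lowest against Veh in the libraries labelled Spo11KO for the 9 genes from aldolase to pyruvate kinase, at 0.514 ± 0.0081 of Veh, and for the 4 genes of glucose uptake and phosphorylation, at 0.516 ± 0.0036. The same sums in Stra8KO stood at 0.676 ± 0.0078 and 0.800 ± 0.0048 of Veh. The 5 genes of the hexose phosphate steps stood at 1.01 ± 0.0081 of Veh in Stra8KO and 0.735 ± 0.016 for the cultures labelled Spo11KO. The lactate group stood at 0.757 ± 0.018 in Stra8KO and 0.604 ± 0.025 for the cultures labelled Spo11KO. The pyruvate dehydrogenase group stood apart, at 1.16 ± 0.020 in Stra8KO and 0.983 ± 0.017 for the cultures labelled Spo11KO. The latter ratio depended on the scaling and was 1.08 when counts were first divided by transcript length. With TMM scaling, the summed level in the libraries labelled Spo11KO was 431 and 422 CPM under Veh and 390 and 396 CPM under NRRA. By that scaling the NRRA libraries were the lower ones, without overlap. The pentose phosphate group had the reverse order of the genotypes, at 0.729 ± 0.0043 in Stra8KO and 0.843 ± 0.010 for the cultures labelled Spo11KO. That order of the sum was not shared by most of its genes. The NRRA effect was higher in Stra8KO for 4 of the 7 and lower for 3, with a median difference of log2 0.0059.

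**Figure D1:**
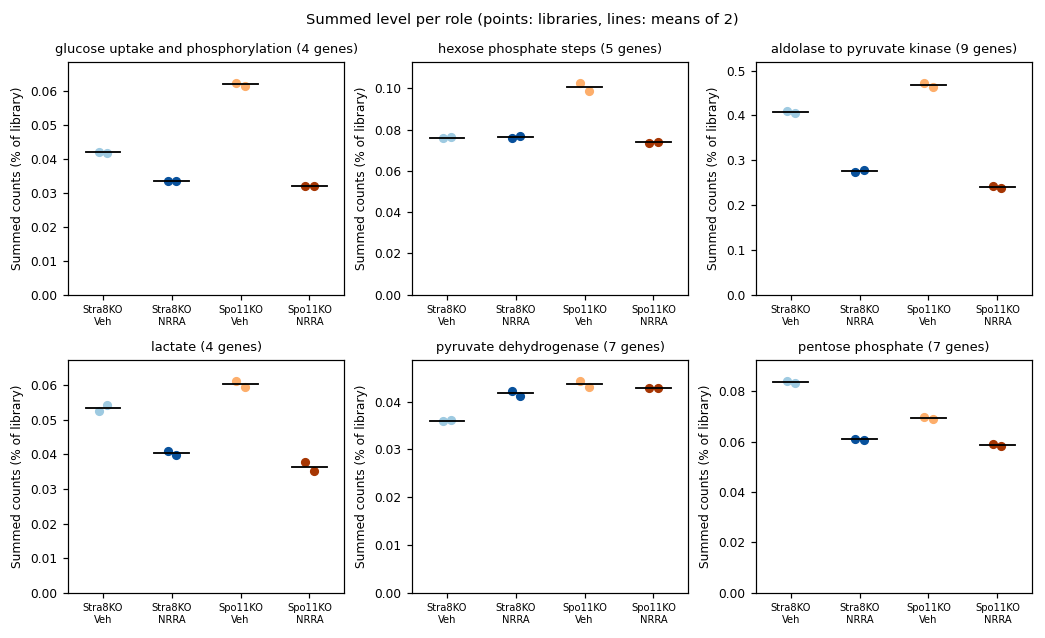
Summed counts of the genes of each role as a percent of all counts of a library (vertical axes, each from 0) in the 4 groups, with a point per library and a line at the mean of 2. NRRA libraries lie below Veh libraries in both genotypes for glucose uptake, aldolase to pyruvate kinase, lactate and pentose phosphate genes. The pyruvate dehydrogenase group stood at 1.16 times Veh in Stra8KO and at 0.983 times by counts or 1.08 times per kilobase in the other genotype. The TMM-scaled sum of that group in the other genotype was 431 and 422 CPM under Veh and 390 and 396 CPM under NRRA.

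Gene by gene, the quasi-likelihood test of edgeR, adjusted by the method of Benjamini and Hochberg over all tested genes, called 22 of the 36 genes lower and 6 higher after NRRA in Stra8KO, beside 20.1% of all tested genes lower and 21.4% higher. Their median log2 fold change was -0.27, against 0.01 for all genes. In the cultures labelled Spo11KO, 27 were called lower and 3 higher, beside 25.5% lower and 24.7% higher among all genes, and the median was -0.56 against 0.01. The falls were mostly small in Stra8KO, where 3 of the 36 fell at least 1.5-fold (6.48% of all genes did), and larger in the cultures labelled Spo11KO, where 17 did (9.52% of all genes). A total of 21 genes were called lower in both genotypes (13.6% of all genes) and only Pdk4 higher in both (13.2% of all genes). Another 4, Pfkl, Pfkfb3, Pdha1 and Pdk1, rose in Stra8KO and fell in the cultures labelled Spo11KO, a pattern of opposite calls that 3.04% of all genes had. Most fibroblast markers rose under NRRA, with 10 of 16 higher and 5 lower in Stra8KO, and with 11 higher and 5 lower for the cultures labelled Spo11KO. Their medians were log2 0.50 and 0.24, and their summed level was higher under NRRA in both genotypes. Of the 8 pan-germ markers, 6 rose in each genotype and none fell. The part of this shift in cell markers in the falls of the 36 genes was not tested.

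**Figure D2:**
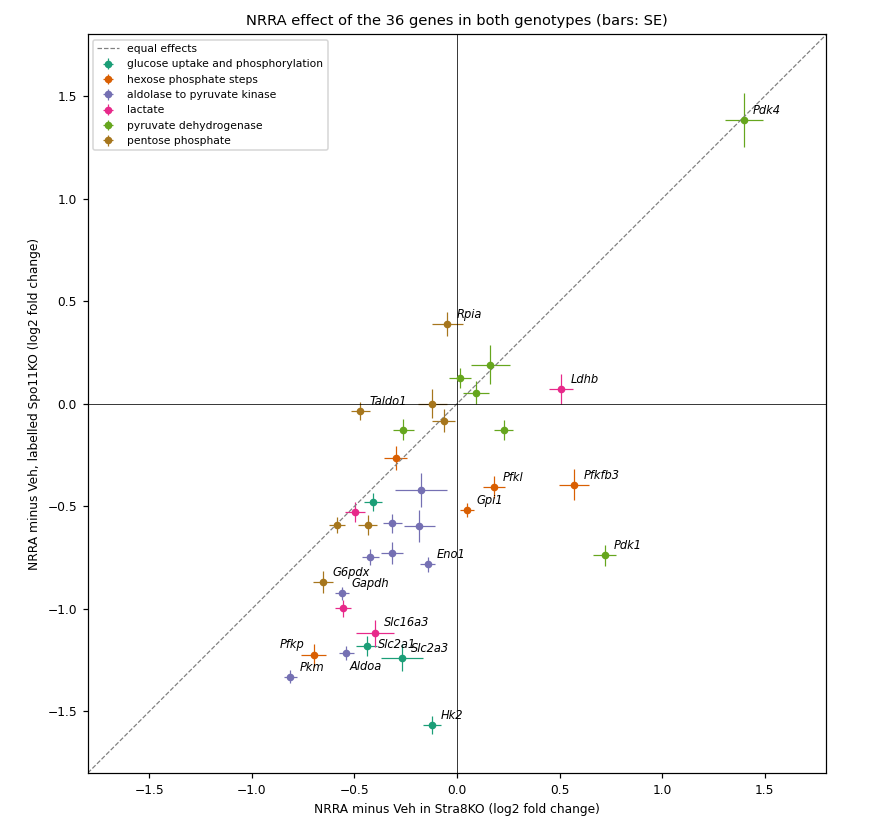
NRRA effect (log2 fold change of NRRA over Veh) of the 36 genes in Stra8KO (horizontal axis) and in the libraries labelled Spo11KO (vertical axis), with bars of 1 SE and colours by role. Most points lie at lower left and below the dashed line of equal effects. Hk2 sits at -0.12 and -1.57, Pdk1 at 0.72 and -0.74, and Pdk4 near the line at 1.40 and 1.38.

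Glucose enters through the transporters GLUT1 (Slc2a1) and GLUT3 (Slc2a3) and is trapped by the hexokinases HK1 and HK2. All 4 genes were called lower after NRRA in both genotypes, as were 13.6% of all genes. Hk2 (chr6:82725025-82774454, minus strand, GRCm38) is the inducible hexokinase that binds the outer mitochondrial membrane. Its level was 230.3 and 227 CPM in Spo11KO Veh and 75.98 and 78.4 CPM in Spo11KO NRRA, a fall to 33.8% of Veh (log2 -1.57, SE 0.043, edgeR adjusted p 2.52e-29). In Stra8KO it was 133 and 132 CPM under Veh and 122 and 122 CPM under NRRA. The groups did not overlap there either, but the fall was slight (log2 -0.12, SE 0.044, edgeR adjusted p 0.0204). That small call was lost when either Veh library or either NRRA library of Stra8KO was left out, at log2 -0.12, edgeR adjusted p 0.101 without Veh replicate 1, -0.12, edgeR adjusted p 0.0939 without Veh replicate 2, -0.12, edgeR adjusted p 0.0862 without NRRA replicate 1 and -0.13, edgeR adjusted p 0.082 without NRRA replicate 2. Among the 36 genes Hk2 had the largest fall in the cultures labelled Spo11KO.

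Slc2a1, the basal glucose transporter, went from 141 and 133 CPM to 61.6 and 59.3 CPM in the libraries labelled Spo11KO, and from 91.1 and 91.7 CPM to 68.4 and 66.4 CPM in Stra8KO. The NRRA libraries were the lower ones in each genotype, by log2 -1.18 (SE 0.049) and -0.44 (SE 0.052). Slc2a3, a transporter with high affinity for glucose, was scarcer in Stra8KO, at 14.2 and 13.4 CPM under Veh and 10.7 and 12.2 CPM under NRRA. In the libraries labelled Spo11KO it went from 56.98 and 54.95 CPM to 24.3 and 23.2 CPM. The fall in the latter was log2 -1.24 (SE 0.068, edgeR adjusted p 2.97e-19). The smaller fall in Stra8KO (log2 -0.27, SE 0.10, edgeR adjusted p 0.0315) lost its call without Stra8KO Veh replicate 1 (log2 -0.23, edgeR adjusted p 0.192), Veh replicate 2 (-0.31, edgeR adjusted p 0.0532) or NRRA replicate 1 (-0.18, edgeR adjusted p 0.294). Hk1, the constitutive hexokinase, fell by nearly the same amount in both genotypes, by log2 -0.41 (SE 0.043) and -0.48 (SE 0.043).

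**Figure D3:**
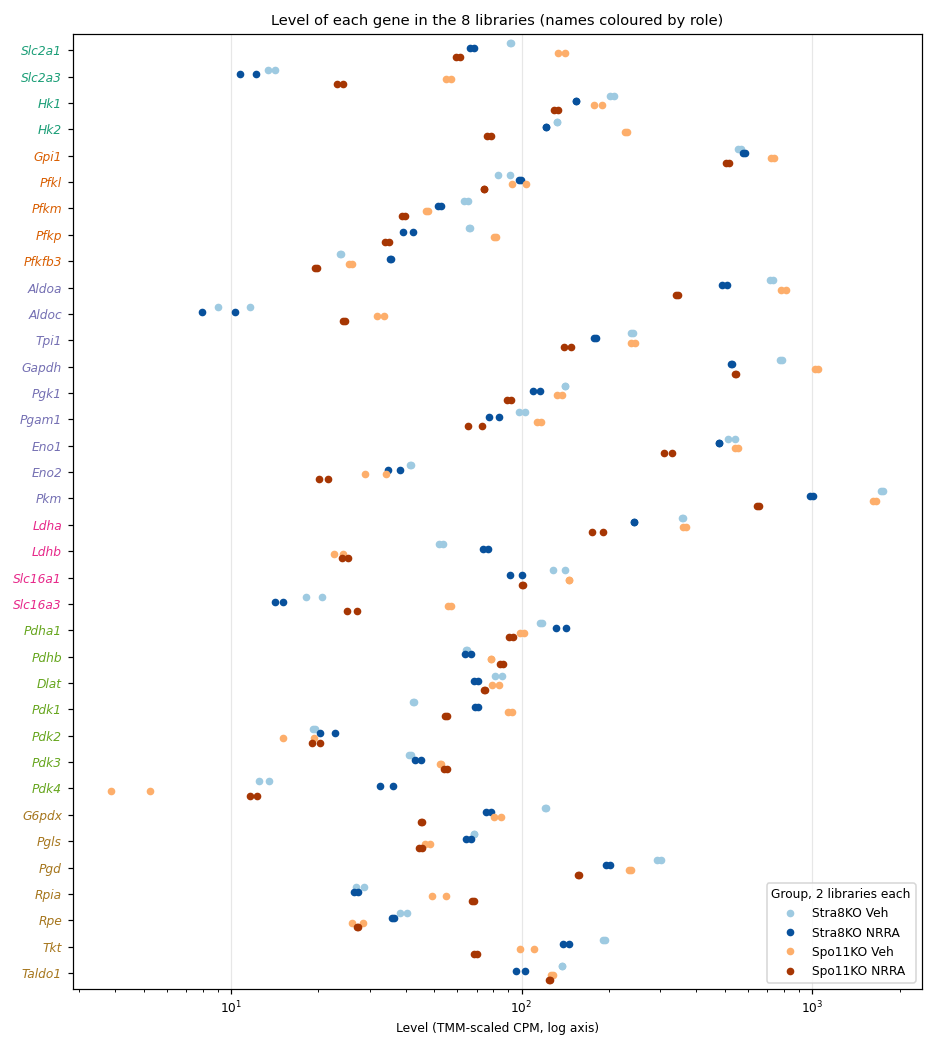
Level of each of the 36 genes in every library (TMM-scaled CPM, log axis), with a point per library, 2 per group, and gene names coloured by role. Spo11KO Veh libraries (light orange) lie highest for Hk2, at 230 and 227 CPM, and NRRA libraries of that genotype (dark orange) lowest, at 76.0 and 78.4 CPM. Pdk4 is higher under NRRA in both genotypes.

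The next steps rearrange glucose 6-phosphate and phosphorylate it again. Gpi1 makes fructose 6-phosphate, Pfkl, Pfkm and Pfkp encode the liver, muscle and platelet forms of phosphofructokinase, the committed step, and Pfkfb3 makes fructose 2,6-bisphosphate, the strongest activator of phosphofructokinase. All 5 fell in the cultures labelled Spo11KO, beside 25.5% of all genes. Only Pfkm and Pfkp fell in Stra8KO, where Pfkl and Pfkfb3 rose, beside 20.1% of all genes lower and 21.4% higher. Pfkfb3 was at 23.7 and 23.8 CPM in Stra8KO Veh, 35.2 and 35.4 CPM in Stra8KO NRRA, 25.4 and 26.2 CPM in Spo11KO Veh and 19.8 and 19.4 CPM in Spo11KO NRRA. The Stra8KO NRRA libraries were thus above all others and the Spo11KO NRRA libraries below all others. The change was log2 0.57 (SE 0.074, edgeR adjusted p 1.90e-08) in Stra8KO and -0.39 (SE 0.075, edgeR adjusted p 2.38e-05) in the cultures labelled Spo11KO.

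Pfkp fell in both genotypes, from 66.4 and 65.8 CPM to 42.3 and 39.1 CPM in Stra8KO and from 81.4 and 80.1 CPM to 33.9 and 35.04 CPM in the libraries labelled Spo11KO. These are log2 fold changes of -0.70 (SE 0.059) and -1.23 (SE 0.057). The Pfkp locus overlaps Pitrm1 on the other strand, and the strand setting of the counting is not given in the sources used here, so reads of these genes may be mixed. Pfkl rose slightly in Stra8KO (log2 0.18, SE 0.054, edgeR adjusted p 0.00648), a call that was lost without Stra8KO Veh replicate 2 (log2 0.11, edgeR adjusted p 0.199), and fell in the cultures labelled Spo11KO (log2 -0.41, SE 0.053). Gpi1 was not called in Stra8KO (log2 0.05, SE 0.034, edgeR adjusted p 0.247) and fell in the cultures labelled Spo11KO (log2 -0.52, SE 0.034). Pfkm fell in both, by log2 0.30 (SE 0.057) and 0.27 (SE 0.059), and shares its locus with Gm26513 on the same strand.

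From aldolase to pyruvate kinase, the pathway splits fructose 1,6-bisphosphate and recovers ATP. This stretch holds the most abundant transcripts of the set, and Gapdh, Pkm and Aldoa had the 3 highest levels per kilobase of transcript in every group. Of its 9 genes, 8 were called lower in Stra8KO, beside 20.1% of all genes. All 9 were called lower in the cultures labelled Spo11KO (25.5% of all genes), 7 of these by at least 1.5-fold (9.52% of all genes). Pkm (chr9:59656368-59679375, plus strand, GRCm38), which encodes the muscle-type pyruvate kinase of the last, ATP-yielding step, was at 1757 and 1733 CPM in Stra8KO Veh and 983 and 1003 CPM in Stra8KO NRRA. In the libraries labelled Spo11KO it was at 1617 and 1664 CPM under Veh and 647 and 656 CPM under NRRA. Levels fell to 56.9% of Veh in Stra8KO (log2 -0.81, SE 0.031, edgeR adjusted p 1.84e-24) and 39.7% in the cultures labelled Spo11KO (log2 -1.33, SE 0.032, edgeR adjusted p 9.93e-32). Gene counts do not separate its M1 and M2 splice forms. Among the 36 genes, Pkm had the largest fall in Stra8KO.

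Aldoa, the aldolase of most tissues, went from 734 and 716 CPM to 488 and 509.5 CPM in Stra8KO (log2 -0.54, SE 0.035) and from 812 and 780.3 CPM to 341 and 346 CPM in the libraries labelled Spo11KO (log2 -1.21, SE 0.035). Gapdh, the NADH-yielding step, was at 786 and 773 CPM in Stra8KO Veh, 528 and 528 CPM in Stra8KO NRRA, 1047 and 1019.6 CPM in Spo11KO Veh and 543 and 546 CPM in Spo11KO NRRA. In these libraries Gapdh fell to 67.8% of Veh in Stra8KO (edgeR adjusted p 3.62e-18) and to 52.7% in the cultures labelled Spo11KO (edgeR adjusted p 1.23e-25), with no overlap of the libraries. A total of 92 near-identical Gapdh copies elsewhere in the genome held 12.3% as many counts as the gene itself. With their counts added, the log2 ratio of shares of library counts (NRRA over Veh, without TMM scaling) was -0.55 in Stra8KO and -0.80 for the cultures labelled Spo11KO, against -0.56 and -0.83 for Gapdh alone.

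Eno1, the main enolase, went from 554 and 543 CPM to 329 and 309 CPM in the libraries labelled Spo11KO (log2 -0.78, SE 0.037). In Stra8KO it went from 541 and 515 CPM to 477 and 479 CPM (log2 -0.14, SE 0.037, edgeR adjusted p 0.00144), and this call was lost without Stra8KO Veh replicate 1 (log2 -0.11, edgeR adjusted p 0.0826). The 4 near-identical copies of Eno1 held 24.2% as many counts as Eno1, most of them in Eno1b, and reads may have been split among them. With their counts added, the log2 ratio of shares of library counts (without TMM scaling) was -0.19 in Stra8KO, against -0.14 for Eno1 alone. For the cultures labelled Spo11KO it was -0.68, against -0.69. Eno2, the neuronal enolase, fell in the cultures labelled Spo11KO (log2 -0.60, SE 0.079). Its fall in Stra8KO (log2 -0.18, SE 0.074, edgeR adjusted p 0.0424) lost its call without Stra8KO Veh replicate 1 (log2 -0.18, edgeR adjusted p 0.156), Veh replicate 2 (-0.19, edgeR adjusted p 0.123) or NRRA replicate 1 (-0.11, edgeR adjusted p 0.361). Levels of Eno2 were 41.5 and 41.2 CPM, 34.6 and 38.2 CPM, 34.1 and 28.8 CPM and 21.6 and 20.1 CPM in Stra8KO Veh, Stra8KO NRRA, Spo11KO Veh and Spo11KO NRRA, so that the Spo11KO NRRA libraries were the lowest.

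Tpi1, which interconverts the triose phosphates, was at 238 and 241 CPM in Stra8KO Veh, 177 and 180.3 CPM in Stra8KO NRRA, 245 and 238 CPM in Spo11KO Veh and 148 and 139.7 CPM in Spo11KO NRRA. Pgam1, the phosphoglycerate mutase, was at 97.9 and 103 CPM, 83.8 and 76.99 CPM, 117 and 113 CPM and 73.3 and 65.6 CPM in the same order. Both fell in Stra8KO, by log2 0.42 (SE 0.041) and 0.32 (SE 0.054), and in the cultures labelled Spo11KO by log2 0.75 (SE 0.041) and 0.73 (SE 0.053). Pgk1, the first ATP-yielding kinase, fell by log2 0.32 (SE 0.046) in Stra8KO and 0.58 (SE 0.046) in the other genotype. Aldoc, the aldolase known from brain, was not called in Stra8KO (log2 -0.18, SE 0.13, edgeR adjusted p 0.29) and fell in the cultures labelled Spo11KO (log2 -0.42, SE 0.081). The paralog Pgk2, known from spermatocytes and spermatids, had at most 5 counts in any library.

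Lactate dehydrogenase is a tetramer of the A subunit (Ldha), which favours lactate formation, and the B subunit (Ldhb), which favours pyruvate formation, and lactate leaves or enters through the monocarboxylate transporters MCT1 (Slc16a1) and MCT4 (Slc16a3). Ldha fell in both genotypes, while Ldhb rose in Stra8KO and was not called in the cultures labelled Spo11KO. Ldha went from 357 and 359 CPM to 243 and 243 CPM in Stra8KO (log2 -0.56, SE 0.040, edgeR adjusted p 2.12e-15). In the libraries labelled Spo11KO it went from 369 and 359.8 CPM to 191 and 175 CPM (log2 -0.998, SE 0.040, edgeR adjusted p 8.99e-24). Ldhb had 53.4 and 52.2 CPM in Stra8KO Veh and 76.6 and 73.6 CPM in Stra8KO NRRA, and 22.7 and 24.3 CPM and 24.1 and 25.2 CPM in the libraries labelled Spo11KO. Those of Stra8KO NRRA stood above all others, a rise of log2 0.51 (SE 0.058, edgeR adjusted p 1.14e-09), whereas the libraries labelled Spo11KO changed by log2 0.07 (SE 0.072, edgeR adjusted p 0.429).

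Slc16a3, the lactate exporter of strongly glycolytic cells, went from 57.4 and 55.6 CPM to 27.05 and 25.01 CPM in the libraries labelled Spo11KO and from 18.2 and 20.6 CPM to 15.1 and 14.2 CPM in Stra8KO. It fell by log2 1.12 (SE 0.067) in the former and 0.40 (SE 0.093) in the latter. Slc16a1 fell by similar amounts, log2 -0.50 (SE 0.050) in Stra8KO and -0.53 (SE 0.049) in the cultures labelled Spo11KO.

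Entry of pyruvate into the mitochondrial cycle is made by the pyruvate dehydrogenase complex (Pdha1, Pdhb and Dlat encode subunits) and is shut by the 4 pyruvate dehydrogenase kinases (Pdk1 to Pdk4). In this group 3 of 7 genes rose and 1 fell in Stra8KO, beside 21.4% and 20.1% of all genes. In the cultures labelled Spo11KO, 2 rose and 3 fell, beside 24.7% and 25.5% of all genes. Pdk4 (chr6:5483351-5496309, minus strand, GRCm38), the kinase known to be induced by fasting, was at 13.5 and 12.5 CPM in Stra8KO Veh and 36.1 and 32.6 CPM in Stra8KO NRRA. In the libraries labelled Spo11KO it was at 5.26 and 3.87 CPM under Veh and 11.6 and 12.2 CPM under NRRA. NRRA libraries were above Veh libraries in both genotypes, by 2.64-fold (log2 1.40, SE 0.093, edgeR adjusted p 2.05e-16) and 2.61-fold (log2 1.38, SE 0.13, edgeR adjusted p 6.88e-12). It had the largest rise of the 36 genes in each genotype.

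Pdk1 moved in opposite directions. Its level was 42.6 and 42.2 CPM in Stra8KO Veh, 68.9 and 70.9 CPM in Stra8KO NRRA, 92.9 and 89.98 CPM in Spo11KO Veh and 54.3 and 55.2 CPM in Spo11KO NRRA. It was therefore lowest in Stra8KO Veh and highest in Spo11KO Veh, with the NRRA libraries between. The rise in Stra8KO was log2 0.72 (SE 0.057, edgeR adjusted p 3.56e-14) and the fall in the cultures labelled Spo11KO was log2 -0.74 (SE 0.051, edgeR adjusted p 7.28e-16). Pdk2 and Pdk3 were called in neither, with log2 changes between 0.05 and 0.19. Without Spo11KO Veh replicate 1, Pdk2 was called higher in the cultures labelled Spo11KO (log2 0.38, edgeR adjusted p 0.00333).

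The subunit genes moved little. Pdha1 rose by log2 0.23 (SE 0.048) in Stra8KO, and its fall in the cultures labelled Spo11KO (log2 -0.13, edgeR adjusted p 0.026) was lost without Spo11KO Veh replicate 2 (log2 -0.12, edgeR adjusted p 0.0974) or NRRA replicate 1 (-0.11, edgeR adjusted p 0.116). Pdha1 shares its locus with Map3k15 on the other strand. Dlat fell by log2 0.26 (SE 0.053) in Stra8KO. The calls of Dlat (log2 -0.13) and Pdhb (log2 0.12) in the cultures labelled Spo11KO were each lost on leaving out any 1 of several libraries. Dlat then stood at -0.12, edgeR adjusted p 0.0505, and -0.12, edgeR adjusted p 0.0508, without Stra8KO Veh replicates 1 and 2, at -0.09, edgeR adjusted p 0.264 without Spo11KO Veh replicate 1, and at -0.14, edgeR adjusted p 0.0627 and -0.14, edgeR adjusted p 0.0806 without Spo11KO NRRA replicates 1 and 2. Pdhb stood at 0.12, edgeR adjusted p 0.0923 and 0.11, edgeR adjusted p 0.128 without the Spo11KO Veh replicates, and at 0.14, edgeR adjusted p 0.0654 and 0.09, edgeR adjusted p 0.278 without the Spo11KO NRRA replicates.

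The pentose phosphate pathway opens with glucose 6-phosphate dehydrogenase (G6pdx), lactonase (Pgls) and 6-phosphogluconate dehydrogenase (Pgd), the oxidative, NADPH-yielding steps. Both dehydrogenase genes fell in both genotypes. G6pdx went from 122 and 121 CPM to 78.2 and 75.7 CPM in Stra8KO (log2 -0.65, SE 0.050, edgeR adjusted p 1.08e-14) and from 84.9 and 80.6 CPM to 45.2 and 45.4 CPM in the libraries labelled Spo11KO (log2 -0.87, SE 0.052, edgeR adjusted p 6.70e-18). Pgd went from 302 and 294 CPM to 202 and 195 CPM and from 238 and 234 CPM to 156 and 157 CPM, falls of nearly equal size (log2 -0.58 and -0.59, SE 0.039 and 0.040). Pgls was called in neither genotype, at log2 -0.06 (edgeR adjusted p 0.372) and -0.08 (edgeR adjusted p 0.243).

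In the non-oxidative branch, Rpia and Rpe interconvert the pentose phosphates, and transketolase (Tkt) and transaldolase (Taldo1) return carbon to glycolysis. Tkt fell in both genotypes, from 194 and 190.4 CPM to 146 and 138 CPM in Stra8KO and from 98.96 and 111 CPM to 70.5 and 68.6 CPM in the libraries labelled Spo11KO, by log2 0.44 (SE 0.047) and 0.59 (SE 0.050). Taldo1 fell in Stra8KO (log2 -0.47, SE 0.046) and was not called in the cultures labelled Spo11KO (log2 -0.03, SE 0.045, edgeR adjusted p 0.554). Rpia showed the other pattern, with no call in Stra8KO (log2 -0.05, SE 0.075, edgeR adjusted p 0.655) and a rise in the cultures labelled Spo11KO (log2 0.39, SE 0.058, edgeR adjusted p 3.88e-07). Rpe was called in neither, and its locus overlaps Kansl1l on the other strand.

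To ask whether NRRA acted alike in both genotypes, the difference between the NRRA effects (Stra8KO minus Spo11KO) was tested in the same edgeR fit. It was called for 23 of the 36 genes, 21 higher and 2 lower, beside 14.6% and 10.1% of all genes, and 8 were higher by at least 1.5-fold (6.67% of all genes). The median difference was 0.34 (log2), against 0.01 for all genes. A positive value means that the NRRA effect was higher in Stra8KO, whether as a smaller fall or as a rise. Pdk1 led at 1.46 (SE 0.077, edgeR adjusted p 6.16e-19) with Hk2 next at 1.44 (SE 0.062, edgeR adjusted p 8.14e-22). The others past 1.5-fold were Slc2a3 at 0.97 (SE 0.12), Pfkfb3 at 0.97 (SE 0.11), Slc2a1 at 0.74 (SE 0.071), Slc16a3 at 0.72 (SE 0.12), Aldoa at 0.68 (SE 0.049) and Eno1 at 0.64 (SE 0.052). The 2 negative calls were pentose phosphate genes of the non-oxidative branch, Taldo1 at -0.44 (SE 0.064) and Rpia at -0.43 (SE 0.095). Leaving out 1 library removed the calls of Eno2 (log2 0.28, edgeR adjusted p 0.0694, without Spo11KO Veh replicate 1) and G6pdx. For G6pdx the difference was 0.21 (edgeR adjusted p 0.024) with all libraries, 0.22, edgeR adjusted p 0.0724 and 0.21, edgeR adjusted p 0.084 without Stra8KO Veh replicates 1 and 2, 0.19, edgeR adjusted p 0.0972 without Stra8KO NRRA replicate 1, 0.17, edgeR adjusted p 0.113 without Spo11KO Veh replicate 1 and 0.21, edgeR adjusted p 0.064 without Spo11KO NRRA replicate 1.

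The NRRA effect of Pdk4 did not differ detectably between the genotypes (log2 0.02, SE 0.18, edgeR adjusted p 0.968), nor did that of Hk1 (0.07, SE 0.061, edgeR adjusted p 0.467), Slc16a1 (0.03, SE 0.070, edgeR adjusted p 0.815) or Pgd (0.01, SE 0.056, edgeR adjusted p 0.961). Markers of undifferentiated spermatogonia moved in the same contrast: all 6 (Etv5, Gfra1, Id4, Nanos2, Ret and Zbtb16) had a positive difference, with a median of 2.67. They fell in the cultures labelled Spo11KO in 6 of 6 cases, with a median of log2 -2.35, and 3 rose and 2 fell in Stra8KO. Their summed level was 470.5 to 478 CPM in Stra8KO Veh, 498 to 505 CPM in Stra8KO NRRA, 1048 to 1050.3 CPM in Spo11KO Veh and 256 to 259 CPM in Spo11KO NRRA. The part of that change in the glycolytic differences was not tested. Fibroblast markers differed little in this contrast, with 4 of 16 called higher, 1 lower and a median of 0.04, and of the 8 pan-germ markers 1 was higher and 2 were lower. Under Veh, however, the sums of both lists already differed between the genotypes. Fibroblast markers summed to 30725 to 31289 CPM in Stra8KO Veh and 16077 to 16218 CPM in Spo11KO Veh. Pan-germ markers summed to 712 CPM and to 1456 to 1512 CPM. The part of these unlike cell mixtures in the differences between the NRRA effects was not tested.

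**Figure D4:**
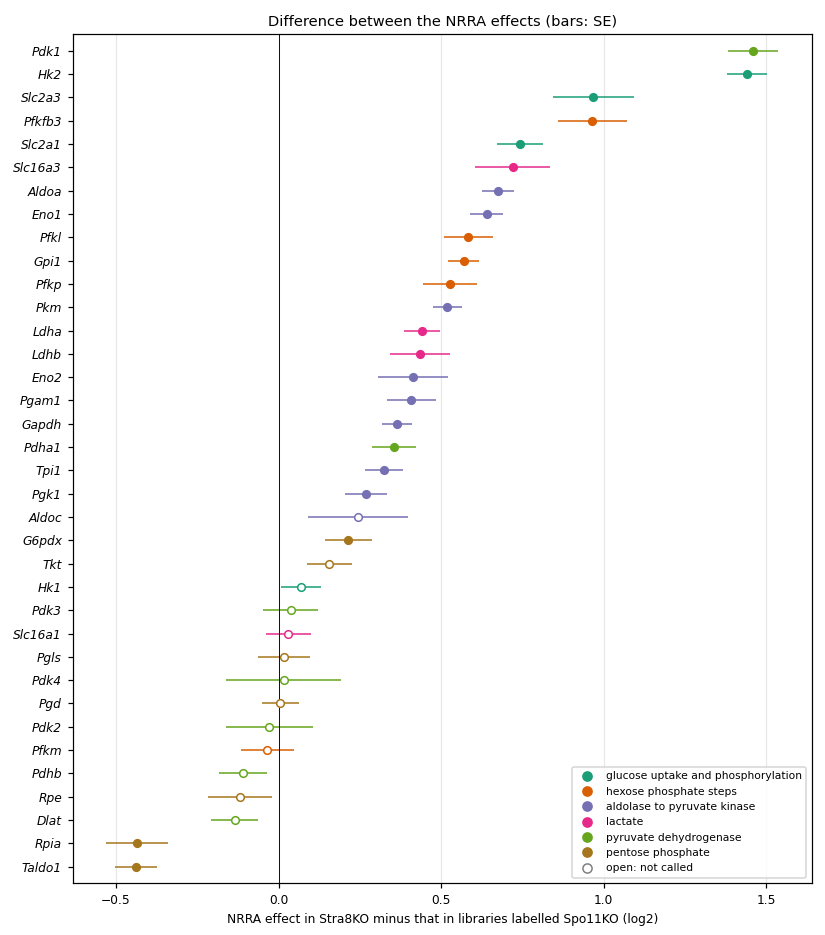
Difference between the NRRA effects (Stra8KO minus libraries labelled Spo11KO, log2, horizontal axis, bars of 1 SE) for the 36 genes in order of size, with filled points for called genes and colours by role. Pdk1 and Hk2 lie furthest right at 1.46 and 1.44, and Rpia and Taldo1 furthest left at -0.43 and -0.44.

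Compared within a medium, the genotypes differed for most of the genes. Under Veh, 13 of the 36 were higher and 16 lower in Stra8KO than in the libraries labelled Spo11KO, beside 31.5% and 30.7% of all genes. Under NRRA, 25 were higher and 7 lower, beside 35.2% and 29.1%. The median went from -0.04 under Veh to 0.33 under NRRA, against 0.00 and 0.07 for all genes. Scaling by total counts alone moved the median of all genes to -0.11 and -0.14, and the split of the 36 genes to 9 higher and 20 lower under Veh and 20 higher and 10 lower under NRRA. Small differences therefore depended on the scaling, and Pkm and Taldo1 under Veh and Slc2a1 and Gpi1 under NRRA changed sign with it.

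Several large differences had the same sign in both media. Slc2a3 was lower in Stra8KO by log2 2.01 (SE 0.078) under Veh and 1.05 (SE 0.089) under NRRA, Aldoc by 1.67 and 1.43, Slc16a3 by 1.55 and 0.83, and Rpia by 0.91 and 1.34. Ldhb was higher in Stra8KO by log2 1.17 and 1.61, Pdk4 by 1.51 and 1.52, and Tkt by 0.88 and 1.03. Hk2, Pdk1 and Slc2a1 changed sides, from lower in Stra8KO under Veh (log2 -0.79, -1.11 and -0.59) to higher under NRRA (log2 0.65, 0.35 and 0.16), and the last of these, for Slc2a1, changed sign with total-count scaling and lost its call without Stra8KO NRRA replicate 1 (log2 0.14, edgeR adjusted p 0.0721) or Spo11KO NRRA replicate 2 (0.13, edgeR adjusted p 0.0701). The cell markers differed in step with the genotype. All 16 fibroblast markers were higher in Stra8KO in both media, with medians of log2 0.96 under Veh and 0.97 under NRRA, and all 8 pan-germ markers were lower, with medians of -1.0004 and -1.0671. The share of fibroblast-type cells and the genotype cannot be told apart for genes that differ by such amounts.

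Within enzyme families, the balance of isoforms differed between Veh and NRRA libraries as well as the level. Shares were taken per kilobase of the principal transcript and have no test. The Hk2 share of Hk1 and Hk2 went from 46.6% ± 1.4 (SD, n = 2) in Spo11KO Veh to 29.1% ± 0.076 in Spo11KO NRRA, and it was 31.1% ± 0.45 in Stra8KO Veh and 35.5% ± 0.10 in Stra8KO NRRA. The Ldhb share of Ldha and Ldhb went from 16.6% ± 0.28 to 29.5% ± 0.60 in Stra8KO and from 8.02% ± 0.50 to 15.5% ± 1.3 in the libraries labelled Spo11KO. The Hk2 share was thus lower after NRRA in the libraries labelled Spo11KO and higher in Stra8KO, and the Ldhb share was higher in both, each by more than the spread between the libraries of a group. Among the phosphofructokinases, the Pfkp share went from 25.8% ± 0.28 to 18.03% ± 0.81 in Stra8KO and from 31.3% ± 0.91 to 19.9% ± 0.48 in the other genotype, while the Pfkl share went from 37.9% ± 1.8 to 48.6% ± 0.11 and from 42.3% ± 1.6 to 47.6% ± 0.073.

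Of the kinases, Pdk3 held the largest share in all 4 groups, between 38.7% ± 1.6 and 53.3% ± 1.2. The Pdk4 share went from 9.32% ± 0.44 to 18.3% ± 1.1 in Stra8KO and from 2.54% ± 0.46 to 7.05% ± 0.25 in the libraries labelled Spo11KO. The Pdk1 share went up from 20.5% ± 0.044 to 25.1% ± 0.77 in Stra8KO and down from 34.2% ± 0.43 to 21.7% ± 0.20 in the others. The Slc16a3 share of the lactate transporters was 12.8% ± 0.23 and 13.6% ± 0.29 in Stra8KO under Veh and NRRA, and 28.4% ± 0.43 and 20.9% ± 0.75 in the libraries labelled Spo11KO. The Slc2a3 share of the glucose transporter pair was 11.1% ± 0.44 and 12.3% ± 1.2 in Stra8KO under Veh and NRRA, 1.22 percentage points apart. That gap was 0.345 percentage points without NRRA replicate 2 and 2.09 without NRRA replicate 1. In the libraries labelled Spo11KO that share was 25.2% ± 0.31 and 24.4% ± 0.12. Aldoa and Eno1 held over 90% of their families in every group.

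**Figure D5:**
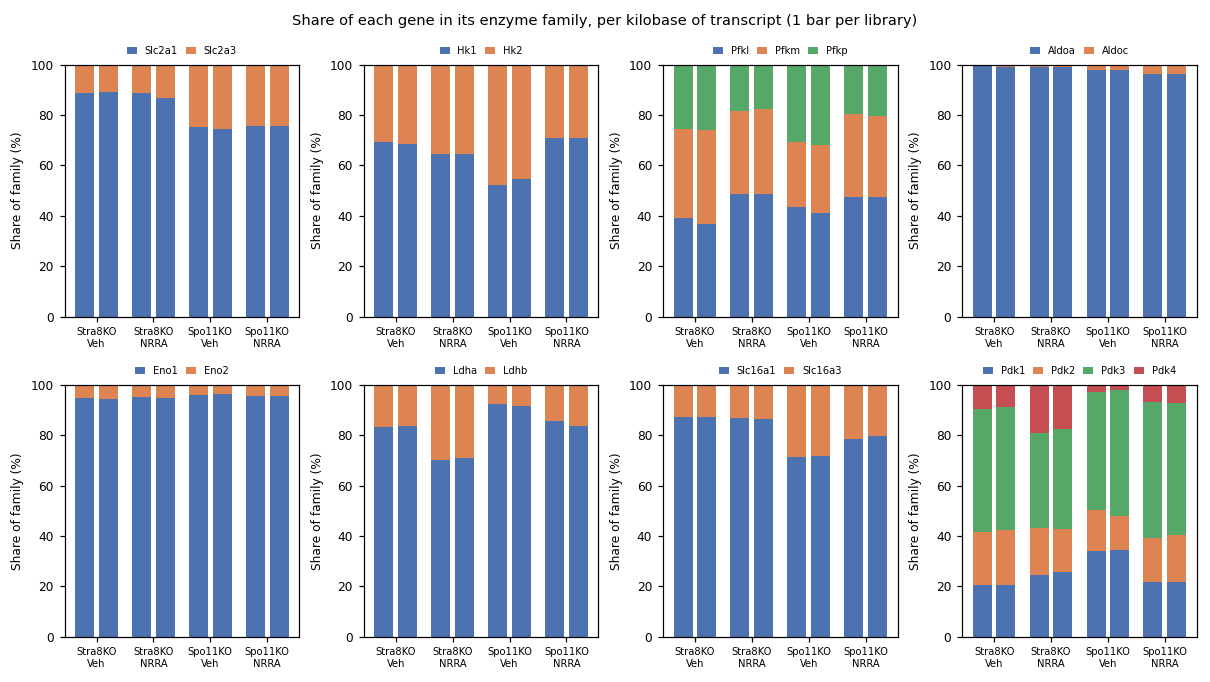
Share of each gene in its enzyme family (percent of the family's counts per kilobase of transcript, vertical axes), with 1 bar per library and 2 bars per group. The Hk2 segment shrinks from 46.6% to 29.1% under NRRA in the libraries labelled Spo11KO, the Ldhb segment grows from 16.6% to 29.5% in Stra8KO, and Aldoa and Eno1 fill nearly all of their bars.

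Promoter sequences were read for the genes because many of them fell together. RefSeq promoters (GRCm38, 250 bases before to 50 after each start) were matched by symbol to 35 of the 36 genes, with 50 entries in all, and Slc2a3 had none. The letters ACGTG, a form of the core of the hypoxia response element bound by HIF factors, were searched on both strands. The form GCGTG was not searched, so the core below means ACGTG only. Also searched was CACGTG, the E-box bound by MYC and its relatives. Each CACGTG holds ACGTG once on each strand. The core was in 21 of the 50 entries (42.0%), beside 19.6% of all 32851 promoters, and in at least 1 entry of 18 of the 35 genes, beside 21.8% of the 27025 genes matched to a promoter by symbol. The E-box was in 5 of 50 entries, or 10.0%, beside 7.15% of all promoters. Of the 26 matched genes called lower by NRRA in the cultures labelled Spo11KO, 15 held the core, as did 1 of 3 called higher and 2 of 6 not called. A match is a string of letters in this window and does not show binding. Of the genes called higher in Stra8KO, Pfkfb3 held the core in each entry, while Pfkl, Ldhb, Pdha1, Pdk1 and Pdk4 held none. Gpi1, Pfkp, Tpi1, Eno1 and Eno2, called lower in the cultures labelled Spo11KO as Pdk1 was, also held none. Examples were picked: Hk2 had the largest fall and 2 matches, as many as Slc16a3, and Pdk1 and Pdk4 rose in Stra8KO without ACGTG. The first entry of Ldha had 5 matches, with each of its 2 E-boxes counted on both strands, and its second entry had none. These examples do not show that matches go with falls. The promoters of Hk2, Ldha (first of 2 entries), Slc16a3, Pdk1 (first of 2 entries) and Pdk4 are shown 5′ to 3′, with ACGTG or its reverse complement in capitals.
Hk2 (chr6:82774405-82774704, minus strand): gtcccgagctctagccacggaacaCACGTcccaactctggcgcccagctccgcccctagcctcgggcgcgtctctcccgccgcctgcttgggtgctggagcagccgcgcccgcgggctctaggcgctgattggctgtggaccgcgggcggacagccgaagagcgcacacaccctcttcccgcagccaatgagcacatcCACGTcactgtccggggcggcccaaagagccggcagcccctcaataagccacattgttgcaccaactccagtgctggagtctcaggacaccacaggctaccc
Ldha (chr7:46845554-46845853, plus strand): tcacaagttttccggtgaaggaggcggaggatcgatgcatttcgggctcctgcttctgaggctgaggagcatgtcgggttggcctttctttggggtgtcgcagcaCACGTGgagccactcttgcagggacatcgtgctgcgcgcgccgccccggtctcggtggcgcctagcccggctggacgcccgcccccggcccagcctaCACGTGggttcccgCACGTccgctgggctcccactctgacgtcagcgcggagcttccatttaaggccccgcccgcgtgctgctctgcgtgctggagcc
Slc16a3 (chr11:120948817-120949116, plus strand): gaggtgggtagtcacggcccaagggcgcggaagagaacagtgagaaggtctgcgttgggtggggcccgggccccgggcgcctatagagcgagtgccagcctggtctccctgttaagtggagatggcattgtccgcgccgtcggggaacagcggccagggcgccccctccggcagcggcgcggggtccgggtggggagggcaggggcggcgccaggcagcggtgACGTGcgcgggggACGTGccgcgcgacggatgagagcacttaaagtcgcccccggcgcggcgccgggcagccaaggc
Pdk1 (chr2:71872974-71873273, plus strand): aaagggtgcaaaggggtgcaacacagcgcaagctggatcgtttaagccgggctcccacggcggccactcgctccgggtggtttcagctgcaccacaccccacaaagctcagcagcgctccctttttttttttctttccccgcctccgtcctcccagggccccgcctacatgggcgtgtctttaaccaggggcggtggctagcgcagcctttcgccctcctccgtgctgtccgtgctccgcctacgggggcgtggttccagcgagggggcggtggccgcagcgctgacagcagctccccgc
Pdk4 (chr6:5496229-5496528, minus strand): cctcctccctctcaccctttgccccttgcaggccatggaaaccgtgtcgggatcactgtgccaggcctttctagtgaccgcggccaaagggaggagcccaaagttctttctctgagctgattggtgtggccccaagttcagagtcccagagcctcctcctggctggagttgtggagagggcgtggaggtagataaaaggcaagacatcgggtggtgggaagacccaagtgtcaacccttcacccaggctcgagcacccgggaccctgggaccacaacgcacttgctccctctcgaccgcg

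Beyond the 36 genes, the listed genes of the same pathways were mostly paralogs, phosphatases and carriers. Of 51 such genes, 45 could be tested. NRRA raised 11 and lowered 9 of them in Stra8KO, beside 21.4% and 20.1% of all genes, with a median of log2 0.13. In the cultures labelled Spo11KO it raised 14 and lowered 10, beside 24.7% and 25.5% of all genes, at a median of 0.04. Emb, the chaperone of the lactate transporter MCT2, fell most, from 94.1 and 89.4 CPM to 35.6 and 33.7 CPM in Stra8KO (log2 -1.41, SE 0.058) and from 98.5 and 97.5 CPM to 23.7 and 24.4 CPM in the libraries labelled Spo11KO (log2 -2.03, SE 0.058). Slc2a4, the insulin-responsive transporter GLUT4, rose from a low level in both genotypes, with 15 and 7 counts and then 45 and 52 in Stra8KO, and 19 and 14 and then 63 and 84 in the libraries labelled Spo11KO (log2 2.12 and 1.91, SE 0.35 and 0.29). Rbks, the ribokinase, rose by log2 1.16 (SE 0.25) and 0.97 (SE 0.19). Ldhc, the germ-cell lactate dehydrogenase, went from 13 and 8 counts to 49 and 55 counts in Stra8KO and from 55 and 34 counts to 66 and 72 counts in the libraries labelled Spo11KO, and rose only in Stra8KO by the test (log2 2.29, SE 0.36), with a difference between the NRRA effects of 1.90 (SE 0.45, edgeR adjusted p 0.00108). Slc2a2, or GLUT2, went from 17 and 15 counts to 49 and 61 counts in the libraries labelled Spo11KO and rose there (log2 1.53, SE 0.32).

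Of 17 further targets of hypoxia signalling outside glycolysis, 16 were tested. In Stra8KO, 6 rose and 3 fell, beside 21.4% and 20.1% of all genes, with a median of log2 0.15. In the cultures labelled Spo11KO, 4 rose and 9 fell, beside 24.7% and 25.5% of all genes, with a median of -0.18. The difference between the NRRA effects was called positive for 13 of the 16 and negative for 1, beside 14.6% and 10.1% of all genes, with a median of 0.48. Adm, which encodes adrenomedullin, rose from 21.2 and 23.1 CPM to 104 and 109 CPM in Stra8KO and from 18.5 and 18.2 CPM to 36.1 and 41.2 CPM in the libraries labelled Spo11KO (log2 2.27 and 1.08, SE 0.068 and 0.075). Ddit4, an inhibitor of mTORC1 signalling, fell from 70.6 and 58.3 CPM to 25.7 and 24.2 CPM in the libraries labelled Spo11KO (log2 -1.37, SE 0.071) and from 54.7 and 53.5 CPM to 41.9 and 42.9 CPM in Stra8KO (log2 -0.35, SE 0.070). Ankrd37 and the carbonic anhydrase gene Car9, both at low counts, fell in the cultures labelled Spo11KO (log2 -1.52 and -1.12, SE 0.19 and 0.33) and were not called in Stra8KO (log2 0.44 and 0.45, edgeR adjusted p 0.317 and 0.203).

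Because Hk2 had the largest NRRA effect in the cultures labelled Spo11KO, the other genes were compared with it by Pearson's r of log2 CPM over the 8 libraries. Gpi1 (0.97), Slc2a1 (0.95) and Pgam1 (0.92) were most like it, and Pdk4 (-0.55) least. These values are descriptions, since the 8 libraries fall into 4 groups of 2 and share their groups' culture conditions and cell mixtures.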

How the data were processed

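Poly(A) RNA was sequenced from 8 SSC culture libraries, 2 for each of Stra8KO Veh, Stra8KO NRRA, Spo11KO Veh and Spo11KO NRRA, grouped by the submitters' labels. The authors deposited raw counts per gene, and the submitters' processing notes name bcl2fastq, STAR 2.6.1c, featureCounts 1.6.4 and mm10. The annotation release, strand setting and treatment of multi-mapping reads are not given in the sources used here, so antisense partners and near-identical copies can share reads. Gene positions and lengths came from GENCODE M21, of the same build (GRCm38), and copies from BLAST 2.17.0 (at least 95% identity over 300 bases).

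Genes kept by filterByExpr were tested with edgeR 4.0.16 in R 4.3.3 (TMM scaling, robust quasi-likelihood fit of 4 group means, two-sided, Benjamini-Hochberg over 20588 genes, called at adjusted p under 0.05). DESeq2 1.42.0, other scalings, filters, thresholds and a replicate block were alternatives. Genes called with a fold change of at least 1.5 in an NRRA effect or in the difference between them are given in every library. Related pathway genes are named at a fold change of at least 2. The 36 genes and all lists were chosen with earlier results of these data known. Library totals of 20960794 to 27038868 counts set the counting precision. Intervals are not given for single values because 2 libraries of each group show the spread. Labelled replicates differed by more than sampling noise. Same-numbered libraries deviated with correlations between -0.03 and 0.06, so the numbers were not treated as pairs.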

Additional observations from a re-analysis of the deposited data

Results flagged for a closer look

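The NRRA effect differed between the genotypes by the edgeR interaction test (Stra8KO minus Spo11KO, log2, Benjamini-Hochberg adjusted p under 0.05 over all tested genes) for 23 of the 36 genes. Of these, 21 were higher and 2 lower, beside 14.6% and 10.1% of all genes. It also differed for 7 of the related genes named above. Those genes had been named for a fold change of at least 2 in an NRRA effect of these data, so the number of their calls has no weight of its own. Of the uptake and phosphorylation genes, Hk2 differed by 1.44, Slc2a3 by 0.97 and Slc2a1 by 0.74. Of the hexose phosphate genes, Pfkfb3 differed by 0.97, Pfkl by 0.58, Gpi1 by 0.57 and Pfkp by 0.53.

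From aldolase to pyruvate kinase, the difference was 0.68 for Aldoa, 0.64 for Eno1, 0.52 for Pkm, 0.41 for Eno2, 0.41 for Pgam1, 0.36 for Gapdh, 0.32 for Tpi1 and 0.27 for Pgk1. Among the lactate genes it was 0.72 for Slc16a3, 0.44 for Ldha and 0.44 for Ldhb. In the pyruvate dehydrogenase group it was 1.46 for Pdk1 and 0.35 for Pdha1. The pentose phosphate genes G6pdx (0.21), Rpia (-0.43) and Taldo1 (-0.44) differed in both directions. The call of Eno2 was lost without Spo11KO Veh replicate 1 (0.28, edgeR adjusted p 0.0694), and that of G6pdx without any 1 of 5 libraries, with adjusted p between 0.0640 and 0.113.

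Among related genes the difference was 1.97 for Ankrd37, 1.90 for Ldhc, 1.57 for Car9, 1.19 for Adm, 1.02 for Ddit4, 0.62 for Emb and -1.73 for Slc2a2. Slc2a2, Ldhc, Ankrd37 and Car9 rest on low counts in some libraries. Slc2a2 ranged from 11 to 61 counts, Ldhc from 8 to 72 and Car9 from 15 to 42.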

How the results depend on the processing

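With 2 libraries per group, small effects depended most on single libraries. Without 1 library in turn, the 36 genes had 5 to 6 higher and 18 to 22 lower calls for NRRA in Stra8KO, 2 to 3 and 25 to 27 in the cultures labelled Spo11KO, 11 to 13 and 14 to 16 between genotypes under Veh, 23 to 25 and 7 to 8 under NRRA, and 20 to 21 and 2 for the difference between the NRRA effects. Calls kept without any 1 library numbered 23 of 28, 27 of 30, 25 of 29, 30 of 32 and 21 of 23. Those lost and not named above were, between genotypes, Pfkl, Pkm, Slc16a1 and Taldo1 under Veh, on leaving out 1 of several Veh libraries, and Pgam1 under NRRA without Spo11KO NRRA replicate 2 (log2 0.14, edgeR adjusted p 0.0599). A fold change of at least 1.5 left 2 higher and 3 lower, 1 and 17, 3 and 7, 8 and 4, and 8 and 0 in the same order. Among all 20588 tested genes, that cut left 3663, 4442, 7302, 7808 and 2134 calls. Of those calls, 63.6%, 55.9%, 55.4%, 59.4% and 64.4% were higher. DESeq2's Wald test called 5 and 20, 2 and 25, 12 and 15, 24 and 7, and 19 and 2. Scaling by total counts gave 5 higher genes for NRRA in the cultures labelled Spo11KO and 4 lower ones for the difference between the NRRA effects. For NRRA in the cultures labelled Spo11KO, this scaling called Pdk2 (log2 0.28, edgeR adjusted p 0.0113) and Pdk3 (0.15, edgeR adjusted p 0.0279) higher and removed the calls of Pdha1 and Dlat. It moved the share of higher among all calls from 49.2% to 61.8%, from 54.7% to 39.5% for the genotypes under NRRA, and from 59.2% to 38.7% for the difference, and the median of all genes to 0.10, -0.14 and -0.08. It reversed Pkm (-0.025) and Taldo1 (-0.00416) under Veh and Slc2a1 (-0.050) and Gpi1 (-0.016) under NRRA, none of them called there. A correction for GC content and length moved the share of higher calls in Stra8KO from 51.6% to 37.2% and for the difference from 59.2% to 47.1%, and the absence of a filter moved the latter to 46.3%. The GC and length correction called Aldoc (log2 -0.31, edgeR adjusted p 0.0391), Pgls (-0.16, edgeR adjusted p 0.00952) and Rpe (-0.21, edgeR adjusted p 0.00570) lower in Stra8KO. It called Pdk2 higher in the cultures labelled Spo11KO (0.21, edgeR adjusted p 0.0418). The NRRA calls of Pfkl in Stra8KO and Pdhb in the cultures labelled Spo11KO were lost with it. With the replicate number as a block, the only call among the 36 genes that changed was Slc16a1 between genotypes under Veh (log2 -0.11, edgeR adjusted p 0.0517), and the numbers do not pair the libraries. With near-identical copies added, the summed shares under Veh and NRRA came to 0.727% and 0.550% for Stra8KO and to 0.828% and 0.501% for the libraries labelled Spo11KO, and per kilobase 0.821%, 0.620%, 0.925% and 0.580%. Per-kilobase ratios of NRRA to Veh were 0.627 for all 36 genes, 0.553 for uptake, 0.766 for hexose phosphate, 0.541 for aldolase to pyruvate kinase, 1.08 for pyruvate dehydrogenase and 0.931 for pentose phosphate genes in the libraries labelled Spo11KO, and 1.02 for hexose phosphate, 0.693 for aldolase to pyruvate kinase, 0.801 for lactate, 1.14 for pyruvate dehydrogenase and 0.761 for pentose phosphate genes in Stra8KO. From plain counts, the family shares moved under NRRA in Stra8KO by 4.82 (Hk2), -9.12 (Pfkp) and 10.7 (Ldhb) percentage points, and in the libraries labelled Spo11KO by 6.76 (Pfkl), -12.4 (Pfkp), 2.70 (Aldoc), 5.86 (Ldhb), -16.3 (Pdk1), 7.03 (Pdk3) and 5.71 (Pdk4). The cause of these shifts was not tested beyond the construction of each alternative.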

Other observations

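Of 15 listed regulators of glycolysis, NRRA raised 4 and lowered 5 in Stra8KO, beside 21.4% and 20.1% of all genes, and raised 4 and lowered 8 in the cultures labelled Spo11KO, beside 24.7% and 25.5%. The difference between the NRRA effects was called positive for 2 of the 15 and negative for 3, beside 14.6% and 10.1% of all genes, with a median of log2 -0.08. Mycn, a MYC-family transcription factor, was at 42.5 and 40.5 CPM in Stra8KO Veh, 53.5 and 50.2 CPM in Stra8KO NRRA, 65.4 and 63.3 CPM in Spo11KO Veh and 30.2 and 30.5 CPM in Spo11KO NRRA. It rose in Stra8KO (log2 0.32, SE 0.062) and fell in the cultures labelled Spo11KO (log2 -1.08, SE 0.060), a difference of 1.40 (SE 0.087, edgeR adjusted p 1.12e-16). Txnip, a brake on glucose uptake whose transcript is known to follow glucose supply, fell from 189 and 188 CPM to 84.5 and 82.1 CPM in Stra8KO and from 250.3 and 245 CPM to 186 and 181 CPM in the libraries labelled Spo11KO (log2 -1.18 and -0.44, SE 0.044 and 0.040), with a difference of -0.74 (SE 0.059, edgeR adjusted p 2.49e-13). Hif1a (log2 -0.25 and -0.17) and Myc (-0.30 and -0.36) fell slightly in both genotypes.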
